A study of Mus musculus with 13 samples.

Results

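Vip interneurons are inhibitory neurons that make vasoactive intestinal peptide. They were picked out of single-nucleus RNA counts of the mouse hippocampus by a rule on 4 genes. A barcode (1 droplet, taken as 1 nucleus) was retained with at least 500 genes detected and at most 5% of its UMIs (unique molecular identifiers, 1 per captured RNA molecule) from mitochondrial genes. A retained barcode counted as a Vip nucleus where Gad1 and Gad2, the enzymes that make GABA, summed to at least 3 UMIs, Vip had at least 2 and Sst had under 3. This gave 327 Vip nuclei of 105427 retained barcodes, and of 4891 barcodes that met the Gad1 and Gad2 threshold (called inhibitory barcodes here). The nuclei were thus chosen by the measured counts of Gad1, Gad2, Vip and Sst, and the levels of these genes are described without a test.

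The nuclei came from whole hippocampus of 13 female hybrid mice, spelled C3HB6F1 in the sample labels and C3B6F1 in the series design, with 1 library per mouse. Young mice were 5 months old and fed ad libitum (n = 3). Old mice were 24 months old and were fed ad libitum (n = 3, numbered 1, 2 and 4 in the labels), restricted from 20 months of age (acute restriction, n = 3) or restricted from 5 months of age (long-term restriction, n = 4). All groups were female mice of this 1 hybrid cross with no transgene named in the labels, so the data say nothing of males or of other strains.

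Interneurons of the hippocampus arise in 2 embryonic zones, the medial and the caudal ganglionic eminence. Vip interneurons come from the caudal zone, together with many Cck and some Lamp5 interneurons, while most Sst and Pvalb interneurons come from the medial zone, where the transcription factor Lhx6 directs their fate. Many Vip interneurons mainly contact other interneurons, so their activity can release pyramidal cells from inhibition. Others contact pyramidal cell bodies and carry Cck. They are excited by acetylcholine, serotonin and noradrenaline, which tie them to arousal.

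Library totals ran from 38546292 to 80538090 UMIs, with 3516 to 12336 retained barcodes. Libraries numbered 1 in each group stood apart. Inhibitory barcodes made up 6.20%, 9.98%, 8.47% and 6.11% of their retained barcodes in the young, old, acute and long-term mice, against 2.54% to 5.43% in the other 9 libraries, and 166 of the 327 Vip nuclei came from these 4. Pairs of libraries shared 3 to 40 barcode sequences (at most 0.473% of the smaller library). No barcode was a Vip nucleus in more than 1 library, and 3 Vip barcodes also occurred in another library.

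Vip nuclei had a median of 7147 UMIs (2916 to 255307), and their summed counts ran from 81708 UMIs in acute restriction 2 to 605781 in old ad libitum 1. By the Scrublet score, which compares each barcode with simulated pairs, 33 of them (10.1%) were marked as likely doublets, against 9.20% of inhibitory and 7.01% of retained barcodes. They were kept in the main results. The tests in Vip nuclei, between classes and of interactions were repeated without them, and the age and diet tests within other inhibitory barcodes were not. A pair of Vip barcodes exceeded 100000 UMIs, both marked as doublets. The deeper made up 47.8% of the summed counts of old ad libitum 4, and the other made up 18.7% of those of old ad libitum 1. At least 3 UMIs of defining excitatory, oligodendrocyte or astrocyte genes were present in 20 Vip nuclei, 16 of them marked doublets.

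Genes that the rule did not use were checked against the name. Adarb2, an RNA-editing family gene that marks neurons of the caudal eminence (chr13:8202866-8768747 in mm10, plus strand), had a UMI in 327 of 327 Vip nuclei, at 13770 CPM (the gene's UMIs scaled to 1000000 UMIs of the summed nuclei). A UMI of it was also present in 56.6% of excitatory and 58.9% of other inhibitory barcodes. Its level was 587.8 CPM in excitatory barcodes and 4145 CPM in other inhibitory barcodes, defined here as inhibitory barcodes without a Vip UMI. Lhx6 had no UMI in any of the 327 nuclei, which allows a share of nuclei with a UMI of up to 1.12% (exact 95% binomial limit) and sets no limit on nuclei that express it. Of other inhibitory barcodes, with a median of 9553 UMIs against 7147 in Vip nuclei, 27.2% had one. Sox6, another factor of medial-eminence neurons, was detected in 2.75% of Vip nuclei and in 40.6% of other inhibitory barcodes.

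Htr3a, the ion channel subunit for serotonin that marks much of the caudal lineage (chr9:48899213-48911099, minus strand), had a UMI in 27.5% of Vip nuclei and in 6.34% of other inhibitory barcodes. Excitatory barcodes, which had a higher median of 10487 UMIs and should lack the gene, showed it in 0.143%. Igf1, a growth factor, was detected in 78.9% of Vip nuclei and in 0.849% of excitatory barcodes. Prox1, a transcription factor of caudal-eminence neurons and also of granule neurons, was present in 84.1% of Vip nuclei, with 38.3% in excitatory barcodes.

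Vip itself (chr10:5639218-5647617, plus strand, overlapping no other annotated gene) had 2 to 37 UMIs per nucleus, with a median of 4. Exactly 2 UMIs were present in 79 nuclei. A Vip UMI was found in 0.815% of excitatory barcodes and in 0.795% of oligodendrocyte barcodes, whose median depth was 1983 UMIs. Beyond the thresholds lay 105 inhibitory barcodes with 1 Vip UMI, whose Adarb2 level was 10440 CPM, and 92 barcodes with at least 2 Vip UMIs but only 2 Gad1 and Gad2 UMIs, at 12110 CPM of Adarb2. Sox6 reached 85.0 CPM in the barcodes with 1 Vip UMI against 13.4 CPM in Vip nuclei. In all, 279 barcodes had enough Vip but too few Gad1 and Gad2 UMIs, and 1 barcode was left out for its Sst UMIs.

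In the 3 young mice, Vip stood at 1280, 1756 and 755 CPM of the summed nuclei. The old mice fed ad libitum gave 579, 469 and 324 CPM. Acutely restricted mice gave 714, 404 and 510 CPM, and mice on long-term restriction 760, 559, 552 and 537 CPM. The young libraries were all above the old ad libitum libraries, and young 3 was level with long-term restriction 1. The barcodes above 100000 UMIs, at 47.8% and 18.7% of the summed counts of old ad libitum 4 and 1, are part of these levels. Per nucleus, the median Vip count was 6, 7 and 4 UMIs in the young and 7, 2.5 and 4 UMIs in the old ad libitum libraries, at library medians of 3721.5 to 7137 and 6901.5 to 11976 UMIs. The rule sets a floor of 2 Vip UMIs, which shallower nuclei reach only at a higher CPM, so these levels are given without a test.

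**Figure D1:**
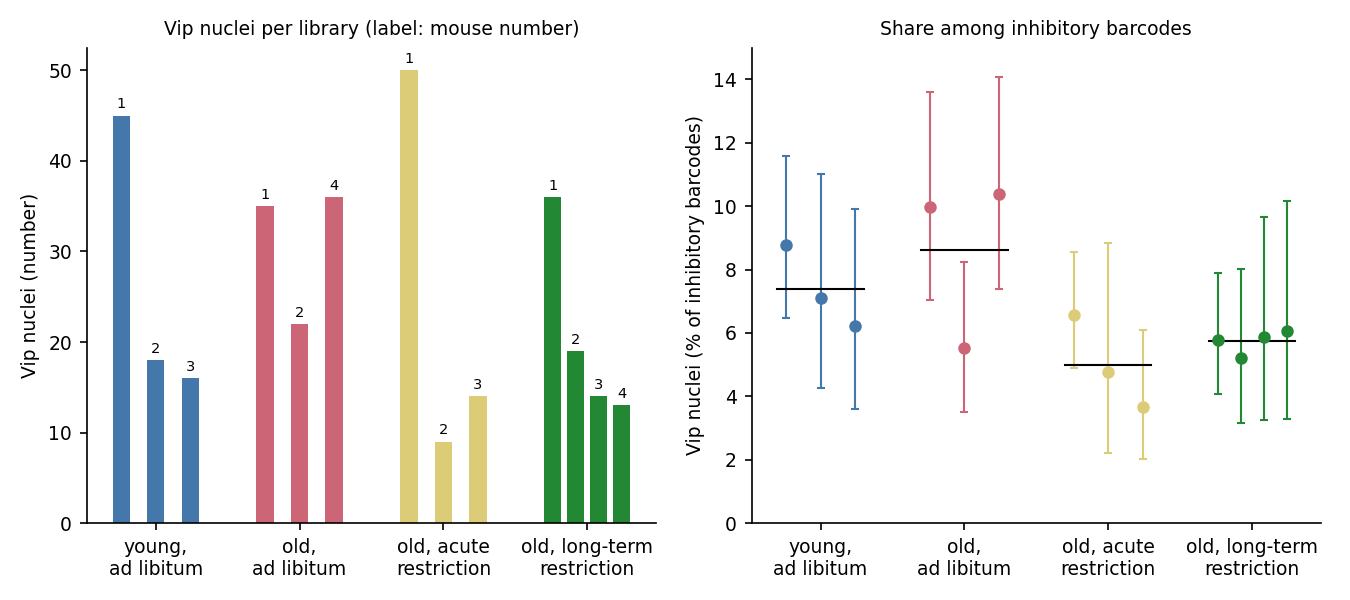
Number of Vip nuclei in each library (left, bars, with the mouse number above) and their share of inhibitory barcodes in percent (right, points with exact 95% binomial intervals, black line for the group mean). The libraries numbered 1 hold 45, 35, 50 and 36 Vip nuclei, and the shares run from 3.68% to 10.4%.

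Genes of known Vip subtypes were present in subsets of the nuclei. Calb2, the calcium buffer calretinin of interneuron-selective cells, was detected in 88 of 327 nuclei (26.9%) and in 1.61% of excitatory barcodes. Penk, the enkephalin precursor, was detected in 100 nuclei (30.6% against 2.40%), and Tac2, the neurokinin B precursor, in 73 (22.3% against 0.387%). Crh, the corticotropin-releasing hormone, had a UMI in 34 nuclei (10.4% against 0.0757% of excitatory barcodes) and Chat, which makes acetylcholine, in 14 (4.28% against 0.126%). These are shares of nuclei with a UMI, not of nuclei that express the gene.

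Cck was detected in 116 Vip nuclei (35.5%) and in 39.6% of excitatory and 25.99% of other inhibitory barcodes. Excitatory hippocampal neurons can transcribe Cck themselves, so their share is not a measure of free RNA. Slc17a8, a vesicular glutamate transporter of some Cck basket cells, had a UMI in only 4 nuclei, and Slc18a3, the vesicular acetylcholine transporter, in none. Calb2 and Penk overlapped: 41 nuclei had both, which is 46.6% of the Calb2 nuclei and 41.0% of the Penk nuclei, and Penk was detected in 24.7% of the nuclei without Calb2. Crh and Chat UMIs were not found in the same nucleus. Chat was detected in 4.78% of the nuclei without Crh, so 0 of the 34 Crh nuclei does not show that these genes exclude each other. Deeper nuclei yield UMIs of both genes of a pair more often, and these overlaps were not corrected for depth.

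Clustering of the 327 nuclei on 1000 variable genes gave 9 clusters of 10 to 49 nuclei. These are described by number and by level only, because the clusters were made from the same counts. Clusters 1 to 5 (43 to 49 nuclei each, from 11 to 13 libraries) held most nuclei. Cluster 1 had the highest Htr3a (144 CPM) and Crh (108 CPM), with Tac2 at 157 CPM. Cluster 3 had the highest Chat (35.2 CPM) and had Penk at 125 CPM, and cluster 2 had Penk at 90.1 CPM with Tac2 at 2.82 CPM.

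Of the Cck basket genes, Cck and Cnr1 were highest in clusters 8 and 7. Cluster 4 followed for Cck, at 175 CPM with a UMI in 24 of its 47 nuclei. Clusters 1, 2, 3 and 5 had Cck at 16.25 to 67.66 CPM. Cluster 8 (22 nuclei from 11 libraries) had Cck at 452 CPM, detected in 20 nuclei, and the cannabinoid receptor Cnr1 at 1307 CPM. Reln, a secreted matrix protein, was detected in 20 of its nuclei at 717 CPM. No nucleus of cluster 8 had a UMI of Calb2 or Penk. Cluster 7 (26 nuclei) had Cck at 233 CPM, detected in 20 nuclei, no Penk UMI, and Prox1 at 56.2 CPM, while the other clusters had Prox1 at 217 to 450 CPM.

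Cluster 9 was small, with 10 nuclei from 5 libraries. It combined Calb2 at 159 CPM with Penk at 145 CPM, and Reln was detected in all 10 of its nuclei. Cluster 6 stood out for technical measures: 24 of its 33 nuclei were marked doublets, its median depth was 13612 UMIs, and the excitatory transporter Slc17a7 reached 110 CPM there against 0 to 14.5 CPM in the other clusters. Its part in the results below was not tested separately from the runs without doublets.

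**Figure D2:**
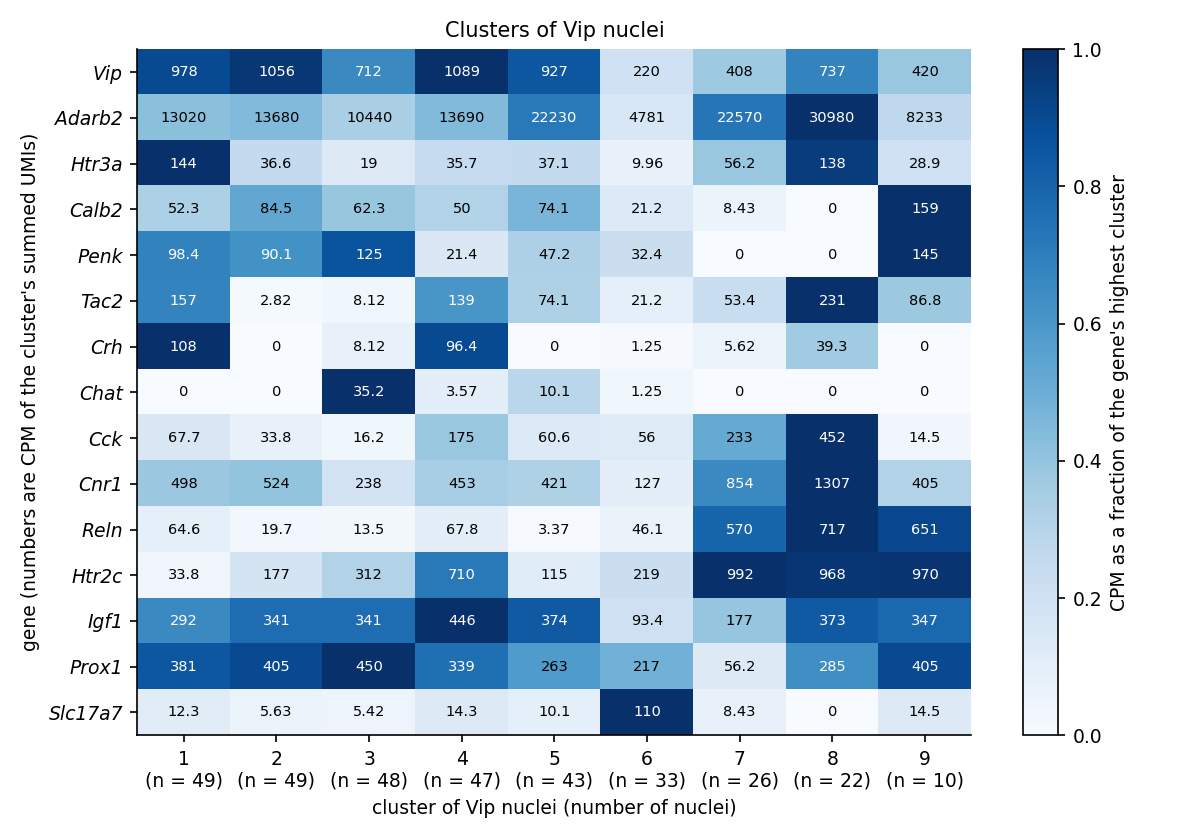
Level of 15 genes (rows, numbers in CPM of the cluster's summed UMIs) in the 9 clusters of Vip nuclei (columns, with the number of nuclei). Colour scales each gene to its highest cluster; cluster 8 is darkest for Cck, Cnr1, Tac2 and Reln, and cluster 6 for Slc17a7.

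The summed counts of Vip nuclei were compared with those of other inhibitory barcodes of the same mouse (12 mice with at least 10 barcodes of each class, edgeR's quasi-likelihood test with mouse as a block). Of 8814 genes tested, 1513 differed at a Benjamini-Hochberg adjusted p below 0.05 (17.2%), with 744 higher (8.44%) and 769 lower (8.72%) in Vip nuclei. Narrower comparisons used Lamp5-type barcodes (at least 2 Lamp5 UMIs, no Vip, under 3 Sst, 397 barcodes) and Sst-type barcodes (at least 3 Sst UMIs, under 2 Vip, 510 barcodes), each in 10 mice. They gave 1145 of 4940 genes (23.2%, with 12.1% higher and 11.1% lower) and 1202 of 5116 genes (23.5%, with 11.2% higher and 12.3% lower). These shares, with 8.44% and 8.72% above, are the background for the counts of listed genes below. All 3 comparisons share the Vip sums, and Lamp5-type barcodes and Sst-type barcodes without a Vip UMI are also part of the other inhibitory barcodes. Vip nuclei were shallower than the other inhibitory barcodes (median 7147 against 9553 UMIs), and the set of other inhibitory barcodes is a mixture whose makeup enters each difference.

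Genes of the caudal lineage were higher in Vip nuclei. Of 16 listed identity genes, 14 could be tested against other inhibitory barcodes; 13 were higher and 1 was lower, with a median log2 difference of 1.45 beside -0.03 over all genes. Adarb2 ran from 10260 to 19480 CPM (median 13630) in Vip nuclei and from 2828 to 5706 CPM (median 4004) in other inhibitory barcodes. These ranges did not overlap, and the log2 difference was 1.88 ± 0.07 (SE, adjusted p = 2.74e-24 by edgeR). Prox1 was 231 to 430 CPM in Vip nuclei and 40.3 to 103 CPM in the others, a log2 difference of 2.18 ± 0.10 (edgeR adjusted p = 3.53e-20).

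Htr3a was 8.95 to 87.9 CPM (median 34.8) against 4.00 to 13.7 CPM (median 6.92), and although these ranges met, it was higher in Vip nuclei in 12 of 12 mice (log2 difference 2.51 ± 0.22, edgeR adjusted p = 1.45e-12). In young 2 and 3, old ad libitum 2, acute restriction 3 and long-term restriction 4, the Vip level rested on 1 or 2 UMIs. Igf1 was higher by 1.64 ± 0.11 on the log2 scale, and Egfr, the receptor for epidermal growth factor, by 1.99 ± 0.11. Against Sst-type barcodes, Adarb2 was higher by 7.0 ± 0.60 and Egfr by 6.27 ± 0.34. Sst-type barcodes had Adarb2 at 4.81 to 1225 CPM. They had Egfr at 0 to 18.7 CPM, and at 0 in most libraries, so the fitted Egfr value rests on few Sst-type UMIs. Against Lamp5-type barcodes, which also come in part from the caudal eminence, Adarb2 was higher by 2.24 ± 0.17, but Egfr did not differ past the threshold (log2 difference 0.03 ± 0.10).

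Genes of the medial lineage were lower. Of 8 tested genes on the list for Sst and medial-eminence neurons, 6 were lower than in other inhibitory barcodes and 2, Elfn1 among them, were higher. Lhx6 had no UMI in Vip nuclei against 28.8 to 58.3 CPM (median 36.7) in the others, at least 36.9-fold lower with a floor of 3 counts over the class. Against Sst-type barcodes it was at least 59.2-fold lower. Sox6 was 0 to 34.7 CPM (median 6.98) in Vip nuclei and 159 to 424 CPM (median 250.1) in other inhibitory barcodes, a log2 difference of -4.28 ± 0.32. Nxph1, a neurexin ligand, was 0 to 442 CPM (median 34.4) against 1840 to 2727 CPM (median 2168), a log2 difference of -4.45 ± 0.49 (edgeR adjusted p = 2.51e-05).

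Elfn1, a synaptic protein known from Sst cells that recruits glutamate receptors across the synapse, was higher than in Lamp5-type barcodes by 5.40 ± 0.32 on the log2 scale, yet lower than in Sst-type barcodes (log2 difference -0.62 ± 0.15). Beside 11.1% called lower over all genes, all 7 tested neurogliaform genes were lower than in Lamp5-type barcodes. Among them were Ndnf, a secreted factor (log2 difference -3.78 ± 0.34), and Hapln1, a link protein of the extracellular matrix (-4.57 ± 0.26). Vcan, a matrix proteoglycan on the precursor cell list, was also lower (-3.92 ± 0.35).

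**Figure D3:**
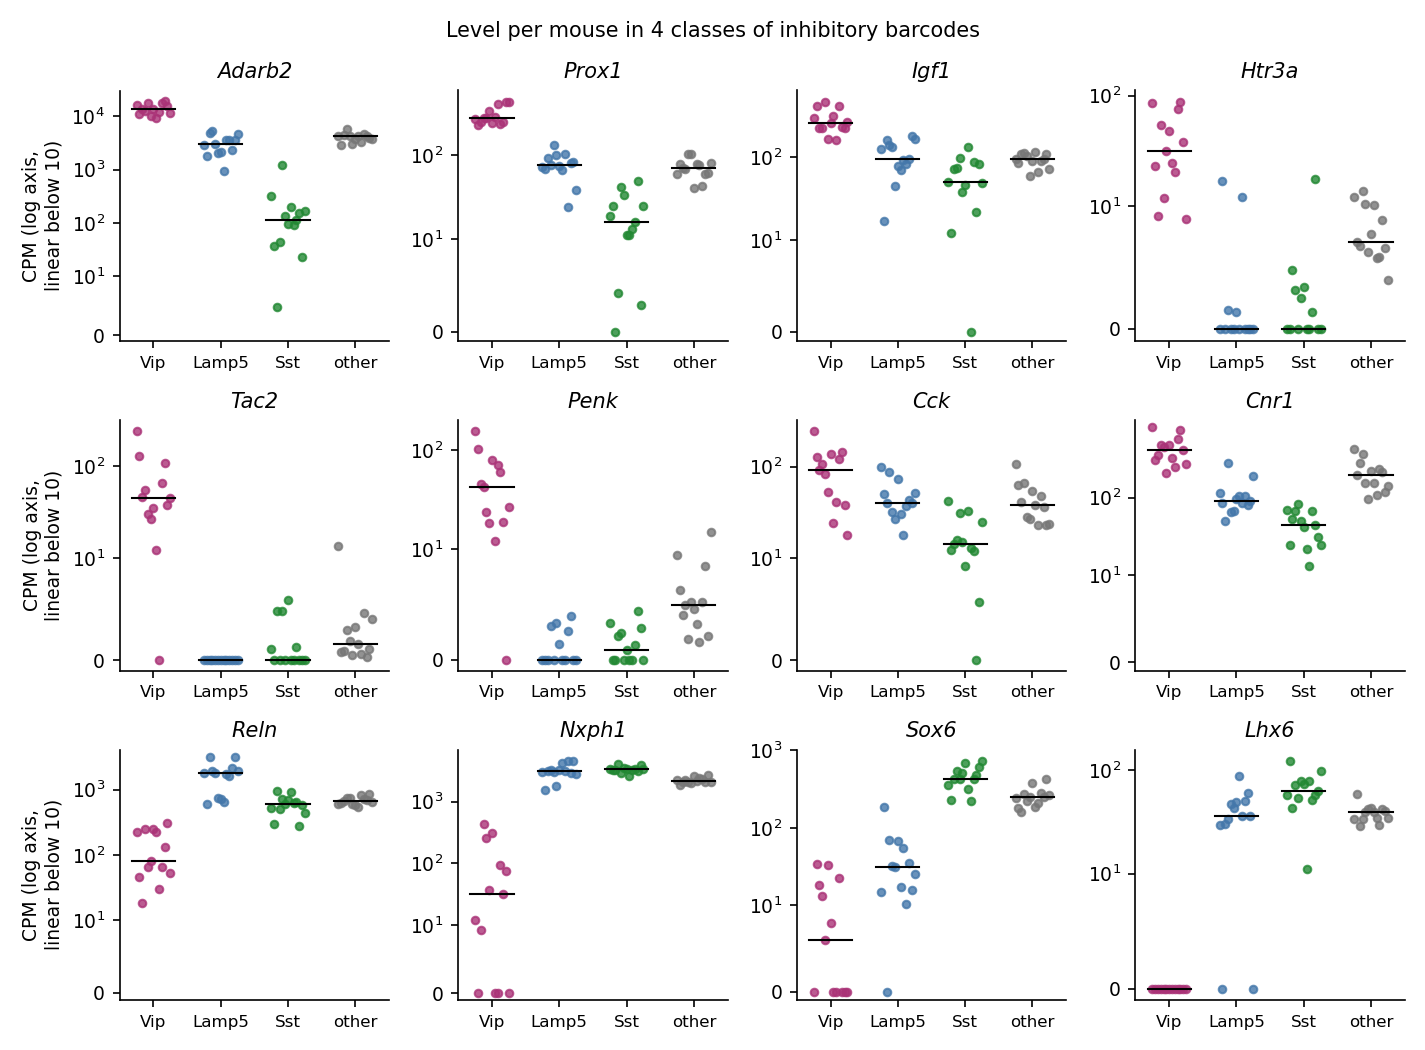
Level of 12 genes in CPM (vertical axes, logarithmic, linear below 10) in Vip nuclei, Lamp5-type, Sst-type and other inhibitory barcodes, 1 point per library (13 libraries) and a black line for the median. Adarb2, Prox1 and Igf1 are highest in Vip nuclei, Lhx6 is at 0 in every Vip library, and Nxph1 and Sox6 are lowest there.

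The genes with the largest differences from other inhibitory barcodes in the same direction in all 12 mice were mostly signalling genes. Sema5b, a guidance semaphorin, was 126 to 280.0 CPM (median 199) in Vip nuclei and 8.09 to 24.6 CPM (median 12.7) in the others. The ranges were far apart, with a log2 difference of 3.79 ± 0.13 (edgeR adjusted p = 2.74e-24). Wnt5b, a Wnt ligand, was 129 to 580 CPM against 18.3 to 35.7 CPM (3.33 ± 0.13), and Fbln2, an extracellular matrix protein, was 52.8 to 131 CPM against 5.72 to 13.5 CPM (3.45 ± 0.17). Wnt5b overlaps Fbxl14 on the opposite strand, and whether counting used strand is not given in the sources used here.

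Sema5b and Wnt5b were higher in each of the narrower comparisons as well. Sema5b was higher by 4.47 ± 0.22 against Lamp5-type and by 5.61 ± 0.23 against Sst-type barcodes, and Wnt5b by 5.19 ± 0.18 and 4.37 ± 0.17. Other genes named by the same rule were Cbln2, a synapse organizer (3.52 ± 0.20), Grpr, the receptor for gastrin-releasing peptide (3.38 ± 0.22), Asic4, an acid-sensing channel family member (2.92 ± 0.24), Angpt1, a ligand of the receptor Tek (2.66 ± 0.16), and Gpd1, a glycerol phosphate dehydrogenase (2.65 ± 0.22). On the lower side stood Gm31218, Moxd1 (-4.25 ± 0.32), the cholinergic receptor modulators Lypd6 (-3.86 ± 0.32) and Lypd6b (-3.28 ± 0.28), Mctp2 (-3.36 ± 0.28) and Gm45904.

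The narrower comparisons brought out further genes. Against Lamp5-type barcodes, Synpr, a synaptic vesicle protein, was 1307 to 2301 CPM in Vip nuclei and 29.4 to 256 CPM in the others, without overlap (log2 difference 4.10 ± 0.33). Npas3, a brain transcription factor, was 2430 to 4896 CPM against 103 to 702 CPM, also without overlap (3.59 ± 0.35). Syt6, a synaptotagmin, was 31.8 to 71.4 CPM in Vip nuclei and had 5 UMIs in all Lamp5-type barcodes of the 10 mice (4.88 ± 0.35). On the lower side, Kcns3, a modulatory potassium channel subunit, was 0 to 15.1 CPM against 76.5 to 187 CPM (-3.89 ± 0.24), and Crispld1 was 0 to 18.4 CPM against 123 to 351 CPM (-4.73 ± 0.27).

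Against Sst-type barcodes, Sorcs3, a sorting receptor, was 1040 to 2191 CPM in Vip nuclei and 33.6 to 219 CPM in the others (log2 difference 3.76 ± 0.20). Pde5a, a phosphodiesterase that breaks down cyclic GMP, was 117 to 352 CPM against 0 to 11.4 CPM (5.31 ± 0.21), and Frem1, an extracellular matrix protein, had 5 UMIs in all Sst-type barcodes (6.28 ± 0.32). The antisense gene Prox1os was higher by 4.08 ± 0.28, but it overlaps Prox1 on the opposite strand, and their reads cannot be assigned with strand use not given. Kctd8, which binds GABA-B receptors, was 18.7 to 125 CPM against 369 to 1052 CPM (-3.54 ± 0.20), and the transcription factor Klf5 was 0 to 15.1 CPM against 42.9 to 144 CPM (-3.75 ± 0.32). None of these ranges overlapped.

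Receptors for acetylcholine, serotonin and noradrenaline split. Of 12 tested genes (20 listed), 6 were higher, 2 lower and 4 did not pass. Adra1b, an alpha-1 adrenergic receptor, ran from 106 to 227 CPM (median 143) in Vip nuclei and from 13.1 to 25.2 CPM (median 18.1) in other inhibitory barcodes. The ranges did not overlap (log2 difference 3.24 ± 0.13), and the gene was also higher than in Lamp5-type (3.01 ± 0.20) and Sst-type barcodes (3.80 ± 0.25). Htr2c, a serotonin receptor, was higher in all 3 comparisons, by 1.74 ± 0.15, 2.42 ± 0.30 and 3.24 ± 0.42, while Htr2a was lower in all 3, with log2 differences of -2.20 ± 0.24, -2.49 ± 0.29 and -2.43 ± 0.26.

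Chrm3, a muscarinic receptor, was higher against other inhibitory barcodes by 0.97 ± 0.08. The nicotinic subunit Chrna7 was higher by 0.88 ± 0.09, but against Lamp5-type barcodes its log2 difference was -0.02 ± 0.15, short of the threshold. Htr1f, a further serotonin receptor, was lower in all 3 comparisons (log2 differences of -0.74 ± 0.18, -0.66 ± 0.15 and -0.55 ± 0.16).

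Ionotropic glutamate receptor subunits changed in both directions. All 16 listed genes were tested against other inhibitory barcodes; 7 were higher and 6 lower, with a median log2 difference of 0.02. Among AMPA receptor subunits, Gria1 ran from 746 to 1532 CPM in Vip nuclei and from 2389 to 3594 CPM in the others, without overlap (log2 difference -1.44 ± 0.08, edgeR adjusted p = 2.87e-20). Gria3 (-2.13 ± 0.25) and Gria4 (-0.78 ± 0.07) were lower too. Gria2, whose edited form limits calcium entry, was higher by 0.31 ± 0.06, in 12 of 12 mice.

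The NMDA receptor subunits divided in the same way. Grin2a (log2 difference -1.34 ± 0.16) and Grin3a (-0.70 ± 0.10) were lower, whereas Grin2b was higher by 0.57 ± 0.06 and Grin2d by 0.61 ± 0.15. The delta receptor Grid1 was higher (0.53 ± 0.07). These 9 genes, Gria1 to Gria4, Grin2a, Grin2b, Grin2d, Grin3a and Grid1, had the same direction past the threshold against Lamp5-type and Sst-type barcodes. The kainate receptor Grik3 did not: it was higher than in Lamp5-type barcodes by 1.61 ± 0.24 and lower than in Sst-type barcodes (-1.92 ± 0.23).

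**Figure D4:**
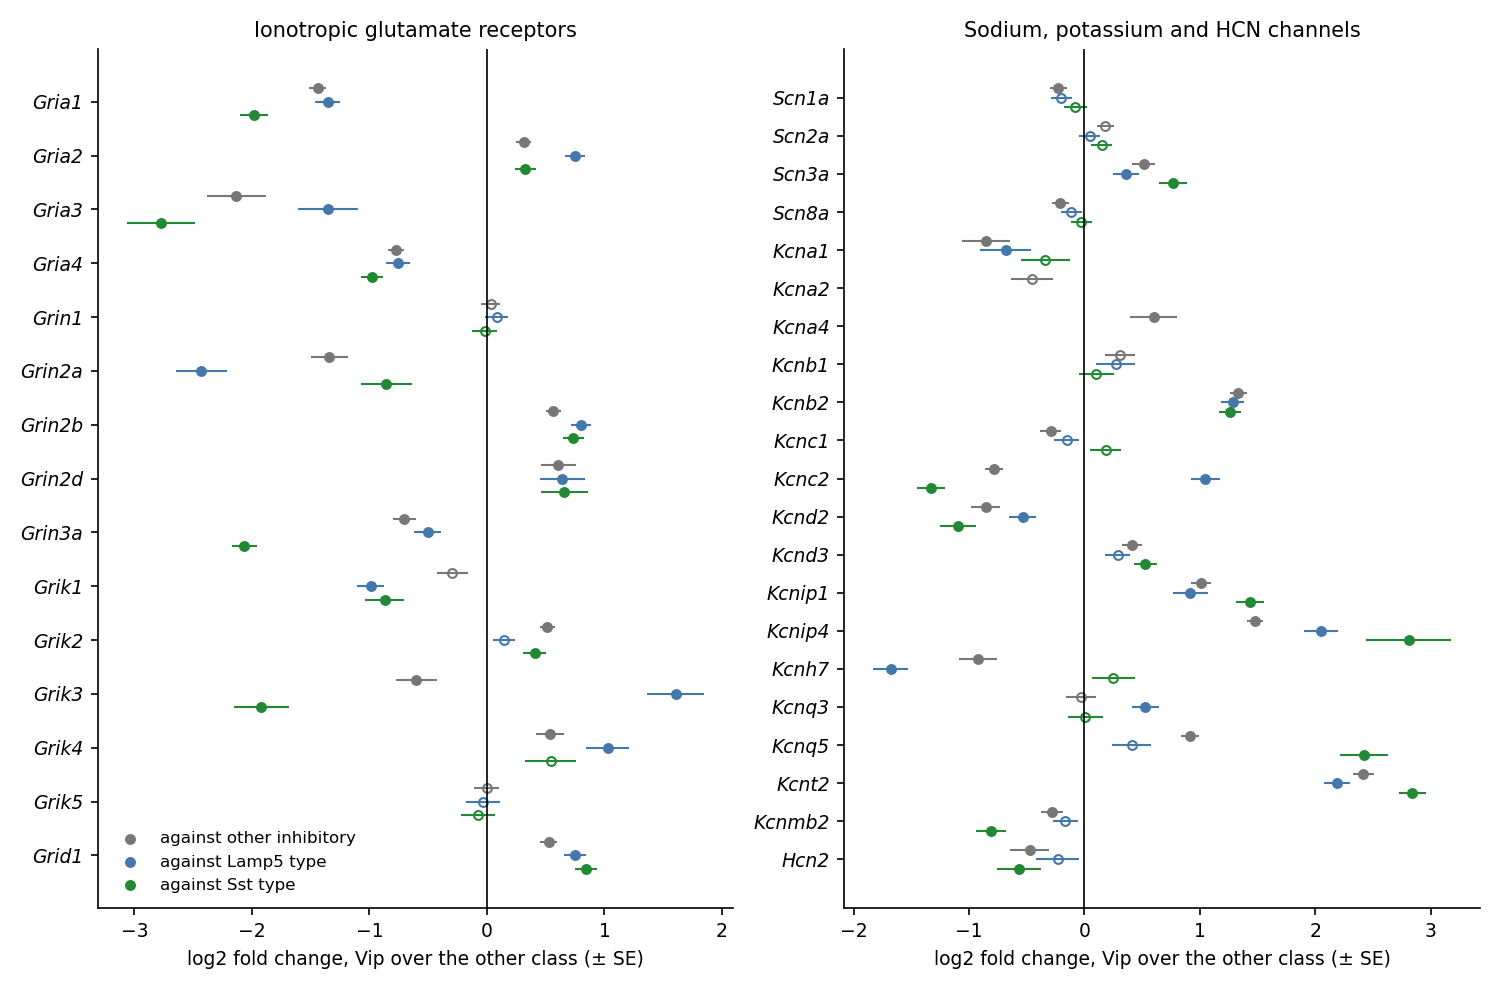
Log2 fold change of Vip nuclei over each other class (horizontal axes, ± SE) for 15 ionotropic glutamate receptor genes (left) and 21 sodium, potassium and HCN channel genes (right). Filled points passed the edgeR threshold and open points did not; Gria1, Gria3, Gria4, Grin2a and Grin3a lie left of 0 in all 3 comparisons, and Kcnt2, Kcnip4, Kcnb2 and Kcnip1 lie right of it.

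Among 22 channel genes, 8 were higher and 10 lower than in other inhibitory barcodes. Kcnt2, a sodium-activated potassium channel, was 705 to 1682 CPM in Vip nuclei and 184 to 257 CPM in the others, a clear separation (log2 difference 2.42 ± 0.09, edgeR adjusted p = 1.91e-22). Kcnip4 and Kcnip1, which bind Kv4 channels, were higher by 1.48 ± 0.07 and 1.01 ± 0.09, and the delayed rectifier Kcnb2 by 1.33 ± 0.07. Kcnc2, a Kv3 channel of fast-spiking cells, was lower than in other inhibitory barcodes (-0.79 ± 0.08) and than in Sst-type barcodes (-1.33 ± 0.12), but higher than in Lamp5-type barcodes by 1.05 ± 0.13.

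GABA-A receptors are the channels through which GABA inhibits neurons. Of 12 GABA-A receptor genes, 3 were higher, among them Gabrb1 (0.32 ± 0.07), and 4 were lower, among them Gabrd, the delta subunit of receptors outside synapses (-1.58 ± 0.29). Slc32a1, which loads GABA into vesicles, had a log2 difference of 0.23 ± 0.15 (edgeR adjusted p = 0.365).

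Of 23 listed neuropeptide and neuropeptide receptor genes, 11 were tested, with 5 higher and 3 lower. Tac2 ran from 0 to 236 CPM (median 45.4) in Vip nuclei and from 0.305 to 13.5 CPM (median 1.50) in other inhibitory barcodes. It was higher in 11 of 12 mice, with a log2 difference of 4.42 ± 0.27 (edgeR adjusted p = 5.71e-14). Penk was higher by 3.31 ± 0.33 and Cck by 1.19 ± 0.13. The neuropeptide Y receptors Npy1r (1.78 ± 0.22) and Npy2r (2.11 ± 0.23) were higher, whereas Npy itself was lower (-3.12 ± 0.41). Oprd1, the delta opioid receptor, was lower (-2.60 ± 0.30), and Crhbp, which binds corticotropin-releasing hormone, had 1 UMI in all Vip nuclei tested. Calb2, Crh and Chat did not pass the filter on low counts in this comparison.

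Among Cck basket genes, Cnr1 was 210 to 806 CPM (median 430.0) in Vip nuclei and 97.1 to 423 CPM (median 205) in other inhibitory barcodes, with overlapping ranges but a higher value in 12 of 12 mice (1.14 ± 0.13). Its difference was larger against Lamp5-type (2.19 ± 0.23) and Sst-type barcodes (3.15 ± 0.15). Of 20 synaptic adhesion genes, 8 were higher and 3 lower. Cntnap4, a neurexin-related protein of interneurons, was lower in all 3 comparisons (-2.10 ± 0.15, -2.34 ± 0.12 and -1.43 ± 0.17).

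Part of the glucocorticoid list was higher. Of 8 tested glucocorticoid genes, 5 were higher and none lower than in other inhibitory barcodes, with a median log2 difference of 0.62. Nr3c2, the mineralocorticoid receptor, was 716 to 1135 CPM against 402 to 542 CPM, without overlap (0.99 ± 0.07, edgeR adjusted p = 5.32e-15). Zbtb16, a transcription factor induced by glucocorticoids, was 381 to 810 CPM against 168 to 292 CPM (1.15 ± 0.08). The glucocorticoid receptor Nr3c1 (0.84 ± 0.12), the kinase Sgk1 (0.65 ± 0.10) and the chaperone Fkbp5 (0.59 ± 0.15) were also higher. Against Sst-type barcodes all 5 tested genes were higher, beside 11.2% over all genes. Against Lamp5-type barcodes 4 of 5 were, beside 12.1% over all genes, with Nr3c1 short of the threshold (0.35 ± 0.16).

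All 15 insulin, IGF and FoxO genes were tested, with 5 higher and none lower. Beside Igf1, they included Pik3r1, a PI3 kinase subunit (1.52 ± 0.12), the IGF1 receptor Igf1r (0.43 ± 0.09) and the insulin receptor Insr (0.28 ± 0.10). Igf1, Pik3r1 and Igf1r were higher in the narrower comparisons too, while Irs1 was lower than in Lamp5-type barcodes (-0.63 ± 0.19). Of 13 tested clock genes, 1 was higher, close to the 8.44% called higher over all genes: Per2, a repressor of the clock (0.58 ± 0.21, edgeR adjusted p = 0.0482, higher in 7 of 12 mice).

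Few markers of other cell types could be tested. Of 3 tested excitatory genes, the kinase Camk2a was higher (0.32 ± 0.08) and Calb1 lower (-1.15 ± 0.25). Mbp, the myelin basic protein, had a log2 difference of 0.51 ± 0.36 (edgeR adjusted p = 0.439), and 0 of 3 tested microglial genes passed. The precursor gene Vcan was lower (-2.25 ± 0.41, edgeR adjusted p = 0.00137). Slc1a2, an astrocyte glutamate transporter, was higher than in Lamp5-type (0.65 ± 0.17) and Sst-type barcodes (1.43 ± 0.39), while its difference from other inhibitory barcodes did not pass (0.77 ± 0.26, edgeR adjusted p = 0.0624). When stricter thresholds were used (5 Gad1 and Gad2 UMIs and 3 Vip UMIs), 578, 591 and 548 genes passed in the 3 comparisons. At least 10 Vip nuclei then remained only in young 1 (21), old ad libitum 1 (23) and 4 (10), acute restriction 1 (21) and long-term restriction 1 (13). These fits thus used fewer mice, and 10426 genes were tested against other inhibitory barcodes. The part of the threshold alone in the lower counts was not tested.

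Age and diet were compared over mice in the summed Vip nuclei. Acute restriction 2, with 9 Vip nuclei, was left out of these fits, so acute restriction had 2 libraries. Between old and young mice fed ad libitum, 1 of 3964 genes passed (0.0252%), and 362 genes had an unadjusted p below 0.05. The count was 14 without young 1, 14 without old ad libitum 2, 18 with the replicate block and 75 with no filter on low counts. That gene was 1700030F04Rik, a long intergenic RNA (chr6:117646693-117751769 in mm10, minus strand) that overlaps Gm7292 on the opposite strand. Young mice had 128, 185 and 120 CPM of it, old ones 36.3, 23.8 and 24.3 CPM. All young libraries were above all old ones, and it fell by 2.25 ± 0.38 on the log2 scale (edgeR adjusted p = 0.0243).

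Acutely restricted mice had 1700030F04Rik at 48.1, 24.5 and 30.6 CPM, and mice on long-term restriction at 72.5, 69.1, 15.1 and 62.6 CPM. Summed counts were 168398 UMIs in old ad libitum 2 and 132155 in long-term restriction 3, so the levels there rest on few UMIs. In 3 of the 4 long-term libraries 1700030F04Rik was above every old ad libitum library, and neither diet contrast passed. In other inhibitory barcodes its ageing difference was -1.78 ± 0.30 (edgeR adjusted p = 0.0618), and the difference between the classes did not pass (adjusted p = 1.0). The call in Vip nuclei was lost when old ad libitum 1 or 4 or young 2 or 3 was left out (adjusted p of 0.11, 0.311, 0.205 and 0.069), and when median depth was a covariate (0.273).

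Subtype peptides varied widely between libraries. The young libraries had Tac2 at 236, 127 and 46.0 CPM and the old ad libitum libraries at 54.5, 29.7 and 26.2 CPM. Acutely restricted mice had 34.8, 12.2 and 0 CPM, those on long-term restriction 64.9, 107, 37.8 and 44.7 CPM. Young mouse 3 fell within the range of the old, and the ageing difference of -2.0 ± 0.52 did not pass (edgeR adjusted p = 0.268). It passed in a fit with a term for libraries numbered 1 (adjusted p = 0.0482), which called 15 genes (0.378%). Penk was 155, 104 and 46.0 CPM in young libraries against 42.9, 23.8 and 18.7 CPM in old ad libitum libraries. Acute restriction gave 80.2, 12.2 and 71.4 CPM, long-term restriction 61.1, 18.8, 0 and 26.8 CPM.

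The young and old ad libitum ranges of Penk nearly met, at 46.0 CPM (5 UMIs) in young 3 and 42.9 CPM in old ad libitum 1. They did not overlap, but the log2 difference of -1.92 ± 0.53 did not pass (edgeR adjusted p = 0.273). In each of the 4 groups the library numbered 1 had the highest level of Penk and of Calb2, at 102, 49.5, 53.5 and 72.5 CPM of Calb2. What sets these libraries apart was not tested. Htr3a, at 86.5, 23.1 and 9.20 CPM in young and 54.5, 11.9 and 31.8 CPM in old ad libitum mice, overlapped between the ages (log2 difference -0.51 ± 0.63, edgeR adjusted p = 0.831), and Adarb2 had a log2 difference of 0.01 ± 0.23 (adjusted p = 0.997).

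Cck, Crh and Igf1 also varied within groups. Cck was 242, 127 and 92.0 CPM in young libraries against 107, 83.1 and 52.4 CPM in old ad libitum libraries, with overlap (log2 difference -1.08 ± 0.55, edgeR adjusted p = 0.575). Young 1 had Crh at 110 CPM and long-term restriction 1 at 53.4 CPM, while the other 11 libraries lay between 0 and 22.7 CPM. Igf1 ran from 230.1 to 416 CPM in young and from 168 to 469 CPM in old ad libitum libraries, which spanned the young range (-0.20 ± 0.37, edgeR adjusted p = 0.904). Chat had UMIs in all 3 old ad libitum libraries (8.25, 17.8 and 11.2 CPM), in acute restriction 1 (8.02 CPM) and in long-term restriction 1 (3.82 CPM), and none in the other 8 libraries.

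No tested gene of the fixed lists passed with age in the fit without further terms. With the term for libraries numbered 1, Tac2 and the muscarinic receptor Chrm2 passed (edgeR adjusted p = 0.0482 and 0.00267). Among the young and old ad libitum libraries, Chrm2 was high only in old ad libitum 1. Its 281 UMIs over all Vip nuclei came from 17 nuclei. Without that term, 0 of 12 caudal identity genes passed (edgeR, 3 at an unadjusted p below 0.05), 0 of 16 ionotropic glutamate receptor genes (2 at that level), 0 of 5 glucocorticoid genes (0), 0 of 10 insulin and IGF genes (1) and 0 of 5 clock genes (0). Grin2d, the subunit with the smallest p among the glutamate receptors, had a log2 difference of -1.20 ± 0.32 (edgeR adjusted p = 0.248), without overlap between 29.7 to 38.0 CPM in old and 69.3 to 92.0 CPM in young mice. Npas1, a transcription factor of caudal-eminence cells, had a log2 difference of -1.06 ± 0.32 (adjusted p = 0.296), at 59.9 to 113 CPM in old and 161 to 203 CPM in young mice.

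Oligodendrocyte transcripts differed between libraries, with 0 of 2 tested markers called with age (edgeR, 2 at an unadjusted p below 0.05). The 6 listed markers together were at 27.6 to 57.8 CPM in young, 41.6 to 387 CPM in old ad libitum, 34.8 to 318 CPM in acute and 44.7 to 219 CPM in long-term libraries. Old ad libitum 2, at 41.6 CPM, lay within the young range. Mbp was 17.9, 11.6 and 0 CPM in young and 134, 17.8 and 110 CPM in old ad libitum mice, highest in the libraries that held the barcodes above 100000 UMIs. It did not pass (log2 difference 2.86 ± 0.70, edgeR adjusted p = 0.226), and the part of these transcripts in the differences with age was not tested. Leaving out the barcodes above 100000 UMIs left 1700030F04Rik as the 1 called gene (adjusted p = 0.00899).

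With the filter on low counts, no block or added term, and all Vip nuclei of every library that held enough, restriction gave no call. Long-term restriction against ad libitum feeding had 0 of 3964 genes (0.0%) by edgeR and by DESeq2, with 192 genes at an unadjusted edgeR p below 0.05. This count was 13 without old ad libitum 2, 37 with no filter on low counts, and 1 with the replicate block or with a term for libraries numbered 1. Acute restriction had 0 (0.0%, with 124 at that level), but 9 with no filter, 1 without old ad libitum 2 and 1 without nuclei holding excitatory or glial transcripts. Long-term against acute restriction had 0 (0.0%, with 105), and 1 with the replicate block or the number 1 term. Both diet contrasts share the old ad libitum libraries. None of the tested glucocorticoid, clock, insulin and IGF, glutamate receptor or caudal identity genes passed in any of the 3 contrasts as first fitted; among glutamate receptor genes, 6 of 16 had an unadjusted p below 0.05 under long-term restriction and 1 of 16 under acute restriction.

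The genes with the smallest unadjusted p in each direction follow as values. As the extremes of 3964 genes, they do not show the usual size of a difference. Under long-term restriction, Itpr1, a calcium release channel of the endoplasmic reticulum, was 22.7 to 75.4 CPM against 111 to 161 CPM in old ad libitum mice, without overlap (log2 difference -1.44 ± 0.34, edgeR adjusted p = 0.473). Sgcz, a sarcoglycan, was 202 to 447 CPM against 434 to 910 CPM, with overlap (-1.39 ± 0.31, adjusted p = 0.473), and Shtn1, a protein of neuronal polarity, was 313 to 568 CPM against 211 to 277 CPM (0.77 ± 0.22, adjusted p = 0.717). Gm29514 (1.11 ± 0.30), Manba (1.39 ± 0.40) and Catspere2 (-1.49 ± 0.33) complete the 6. Relative to other inhibitory barcodes, the change in Sgcz went from -1.39 to -0.57 on the log2 scale without doublets. That in Itpr1 went from -1.36 to -1.20.

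Under acute restriction, Dcc, a netrin receptor, was 2814 and 3416 CPM against 1461 to 1954 CPM in old ad libitum mice, without overlap (log2 difference 0.83 ± 0.22, edgeR adjusted p = 0.863). Pgap1 (1.37 ± 0.35) and Siah3 (1.62 ± 0.51) were the others on the positive side. St18, a transcription factor also made by oligodendrocytes, had the most negative value (-4.25 ± 0.91, adjusted p = 0.676) and was high only in old ad libitum 1 and 4. Ppp1r16b (-1.75 ± 0.41) and B3gat1 (-1.59 ± 0.40) followed.

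Between long-term and acute restriction the smallest unadjusted p values belonged to Gm5087 (1.82 ± 0.44), Maml3, a Notch coactivator (1.17 ± 0.34), and Wdr70 (1.27 ± 0.37) on the positive side, and to Mark1 (-1.66 ± 0.45), the activin receptor Acvr2a (-1.09 ± 0.31) and Grik3 (-1.57 ± 0.47) on the negative side, each at an edgeR adjusted p of 1.0. The muscarinic receptor Chrm2 did not pass here (edgeR adjusted p = 1.0), but it did in the fits with a term for libraries numbered 1 or with the replicate block. It was at 258 CPM in old ad libitum 1 and 275 CPM in acute restriction 1, and at 29.7 CPM or below in every other library.

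**Figure D5:**
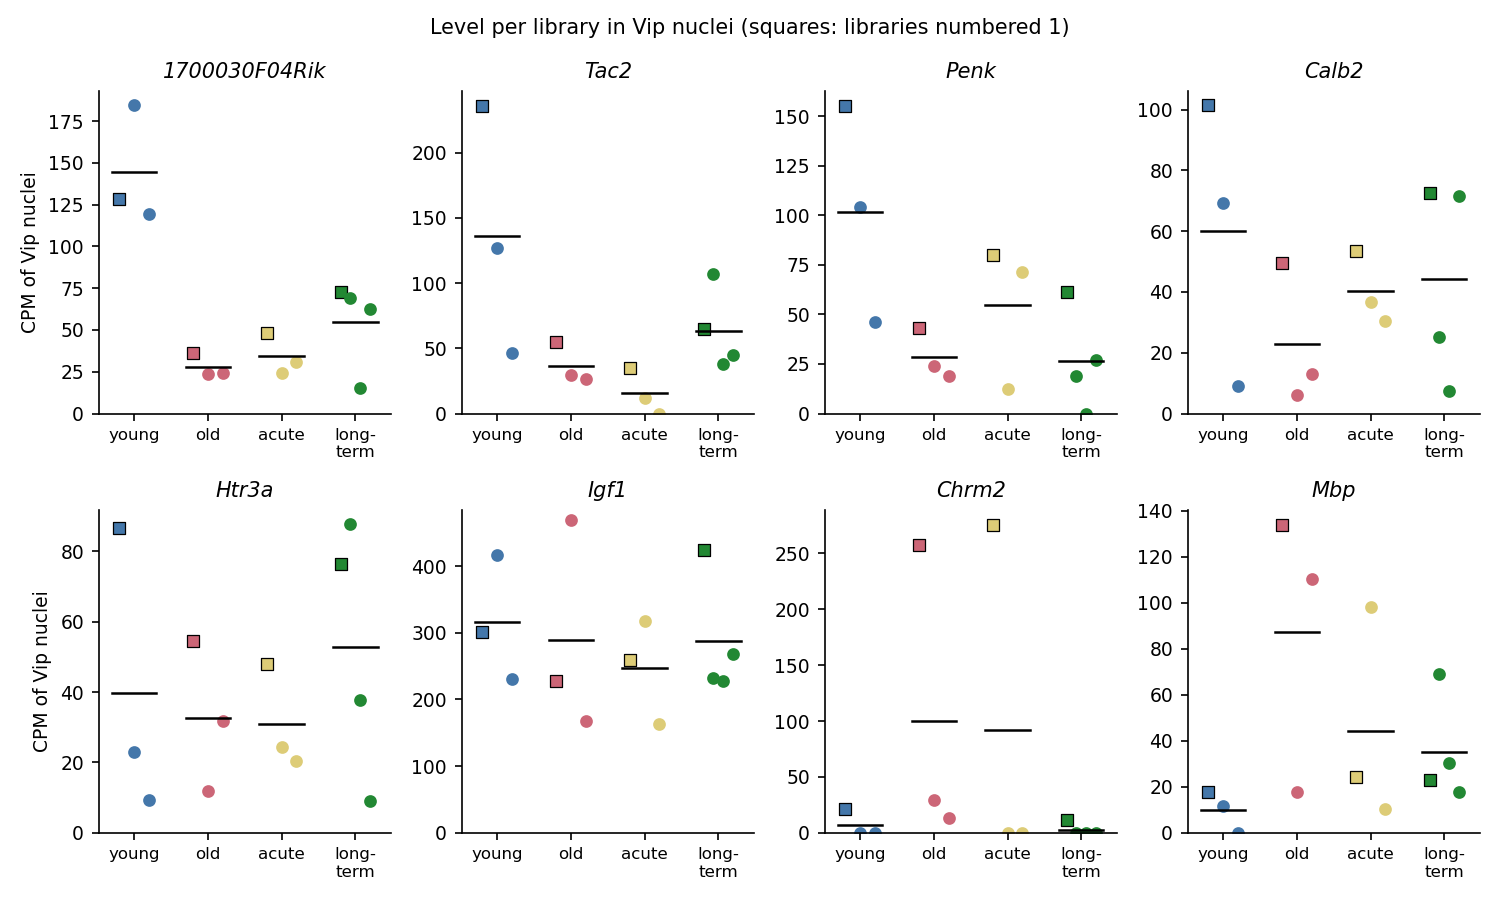
Level of 8 genes in CPM of the summed Vip nuclei, by group (young ad libitum, old ad libitum, acute and long-term restriction), 1 point per library, with squares for libraries numbered 1 and a black line for the group mean. 1700030F04Rik is at 120 to 185 CPM in the young libraries and at 23.8 to 36.3 CPM in the old ad libitum ones; Chrm2 is high in old ad libitum 1 and acute restriction 1.

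Whether a difference with age or diet was larger in Vip nuclei than in other inhibitory barcodes was tested as an interaction in 1 edgeR fit over 11724 genes. With age, 4 genes passed (0.0341%). With long-term restriction 18 passed (0.154%), 1 of them more positive in Vip nuclei (0.00853%) and 17 more negative (0.145%). With acute restriction 9 passed (0.0768%), 1 more positive (0.00853%) and 8 more negative (0.0682%), and both contrasts share the old ad libitum libraries. Without old ad libitum 2 the 3 counts were 45, 89 and 48. Within other inhibitory barcodes alone, 13 of 13951 genes passed with age (0.0932%), 10 higher (0.0717%) and 3 lower (0.0215%) in old mice, and 0 passed in any diet contrast (495, 399 and 204 at an unadjusted edgeR p below 0.05). Of the genes with an interaction, the highest Vip library was old ad libitum 4 for 4, 12 and 4. Without the barcodes above 100000 UMIs 0, 6 and 1 of them still passed, and without doublets 1, 5 and 0. Among those still passing under long-term restriction was Cntn4, a contactin of axons, with an interaction of -0.91 on the log2 scale.

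Vip nuclei made up 8.79%, 7.12% and 6.23% of inhibitory barcodes in the young libraries. The old ad libitum libraries held 9.97%, 5.53% and 10.4%. Shares of 6.55%, 4.76% and 3.68% were found after acute restriction, and of 5.77%, 5.22%, 5.88% and 6.08% after long-term restriction. Old ad libitum 1 and 4 were the highest of all libraries and old ad libitum 2 lay among the restricted ones, so the old ad libitum group overlapped every other group. A lower share and fewer UMIs per nucleus cannot be told apart here, since a nucleus is counted only from its UMIs.

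Group means were 7.38% ± 1.30 in young (SD, n = 3), 8.63% ± 2.69 in old ad libitum (n = 3), 5.00% ± 1.45 under acute (n = 3) and 5.74% ± 0.367 under long-term restriction (n = 4). The difference with age was 1.25 percentage points (exact two-sided permutation p = 0.6), and from 0.373 without old ad libitum 4 to 2.80 without old ad libitum 2. With long-term restriction it was -2.89 points (exact permutation p = 0.114, adjusted p = 0.48) and with acute restriction -3.63 points (exact permutation p = 0.2, adjusted p = 0.48). Without old ad libitum 2 the long-term difference was -4.44 points. Long-term and acute restriction differed by 0.740 points (exact permutation p = 0.429), and by 0.0790 without acute 3 and 1.52 without acute 1. The smallest p these tests can give is 0.1 for 3 against 3 mice and 0.029 for 3 against 4, and adjustment was over 8 tests. With barcodes under 4000 UMIs left out and all others thinned to 4000 UMIs, the difference with age was -1.17 points, the opposite sign. Young 2 kept 4497 of its 9950 retained barcodes in this step, so the set of nuclei changed as well as their depth. The difference with long-term restriction was then -0.970 points and with acute restriction -1.91 points. Thinning also lowered the shares themselves, to 5.03% in old ad libitum, 4.06% under long-term and 3.12% under acute restriction, so points before and after it are not on 1 scale.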

How the data were processed

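The deposited values are unnormalized UMI counts per gene and barcode, 1 matrix of 32285 genes per library, made with Cell Ranger 4.0.0 and mm10, per the submitters' processing notes. Nuclei were sorted on a DNA stain, per the labels' protocols. Strand use and counting of introns are not given in the sources used here. The Vip nuclei, gene lists and tests were chosen with earlier results of these data known.

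Counts were summed per mouse and class and tested with edgeR 4.0.16 (quasi-likelihood, TMM scaling, filterByExpr, R 4.3.3), with Benjamini-Hochberg adjustment over all genes tested; standard errors come from the test statistic. The genes of the rule were left out of the tests, as was Lamp5 between classes. Sums needed at least 10 nuclei. The procedure was tested on simulated data. The simulated counts had the same dispersion for every gene around 1 pooled profile, with no spread particular to a gene, library or nucleus. Recovery of genes that vary more between libraries was not tested. Of 190 genes set to differ by 1 on the log2 scale, the Vip ageing fit recovered 45 (23.7%). Of 187 genes set to differ by 2, it recovered 178 (95.2%). The comparison with Lamp5-type barcodes recovered 169 of 177 genes (95.5%) set to differ by 1. Recovery in the diet contrasts was not tested. Doublets were scored per library with Scrublet in scanpy 1.11.5 at 0.8% per 1000 barcodes and were kept. Clusters used 15 principal components, 15 neighbours and a resolution of 0.6. Locations are from GENCODE for mm10.

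Genes named between classes were the 10 largest differences in each direction among genes that passed, had a mean of at least 32 CPM in the higher class and moved the same way in every mouse; for age and diet they were those that passed and the 3 smallest p in each direction, beside listed genes. Intervals cover counting error only. The labels do not say that mice were independent beyond 1 library each, so p-values measure the spread between these libraries. Alternatives were DESeq2 1.42.0, no filter, other thresholds, thinning to 4000 UMIs, removal of doublets, a replicate block, a term for libraries numbered 1, and leaving out each library. A few genes are not reported here.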

Additional observations from a re-analysis of the deposited data

Results flagged for a closer look

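Interactions that passed (edgeR, adjusted p below 0.05) are given here as log2 values, the change in Vip nuclei minus the change in other inhibitory barcodes. With age they were 1.05 for Epha6, an ephrin receptor, 2.65 for Tmem132d, 2.19 for Samd5 and 2.23 for Rnf220. Epha6 was 786 CPM in young and 1577 CPM in old Vip nuclei against 1827 and 1901 CPM in other inhibitory barcodes. Of these 4, 1 still passed without doublets and 0 without the barcodes above 100000 UMIs. Without old ad libitum 2, the interactions that passed with age, long-term and acute restriction numbered 45, 89 and 48.

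With long-term restriction they were -4.57 for Rmst, -1.39 for Sgcz, -4.90 for Lhfp, -1.86 for Rapgef5, -4.59 for Ror1, -1.97 for Tmem132d, -1.01 for Dpp10, -4.55 for Adgrl2 and -2.68 for Epb41. The others were -3.79 for Fras1, -1.21 for Adcy8, -1.36 for Itpr1, -1.28 for Bcl11a, -2.15 for Nsun2, -4.48 for Colec12, 2.22 for Megf11, -2.30 for Bcl11b and -0.91 for Cntn4. Of these 18, 5 still passed without doublets and 6 without the deep barcodes.

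With acute restriction they were -9.53 for Rmst, -3.33 for Epb41, -1.31 for Khdrbs2, -1.37 for Sgcz, -9.14 for Gng12, 1.82 for Siah3, -9.03 for Lhfp, -1.44 for Cdh12 and -3.40 for Hlf. Rmst, Gng12 and Lhfp had no UMI in Vip nuclei under acute restriction, so their fitted values are no bound. Of these 9, 0 still passed without doublets and 1 without the deep barcodes. The part of the deep barcodes in the others was not tested further.

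In the 4 long-term libraries, 1 value stood far from the rest for 3 genes in Vip nuclei. Chance gives such a gap in about 1 in 20 groups of continuous values, a rate that does not hold for sparse counts or for a gene of the selection rule. Vip, which the rule used, was 760 CPM in long-term restriction 1 against 537 to 559 CPM in the others. Chat was 3.82 CPM there from 1 UMI and Sox6 22.9 CPM from 6 UMIs, with 0 in the others.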

How the results depend on the processing

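Ageing calls in Vip nuclei were 4 with DESeq2, 75 with no filter on low counts, 15 with a term for libraries numbered 1 (with or without the barcodes above 100000 UMIs) and 0 with median UMIs as a covariate; leaving out 1 library gave 0 to 14 (14 without young 1 and without old ad libitum 2). Long-term restriction gave 37 with no filter, 1 with the number 1 term (also without the deep barcodes) and 0 to 13 with 1 library left out (13 without old ad libitum 2). Acute restriction gave 9 with no filter, 1 without nuclei holding excitatory or glial transcripts and 0 to 1 with 1 library left out, where a lone acute library is assumed to vary like the other groups. Long-term against acute restriction gave 1 with the number 1 term and 0 in every leave-one-out fit. With the replicate number as a block, the calls were 18, 1, 0 and 1. Deviations of libraries sharing a number from their group mean correlated at 0.13 to 0.277 for number 1 and at 0.21 for the 1 pair of number 4. The values were -0.06 to 0.034 for number 2 and -0.024 to 0.059 for number 3. With 2 acute libraries in the fit, the deviation of acute 3 mirrors that of acute 1, so these correlations cannot decide whether numbers pair. The numbers were not taken as pairs in the main fits. Stricter thresholds, which left fewer mice in the fits, gave 578, 591 and 548 class differences. Thinning gave 765 against Sst-type barcodes, and leaving out 1 mouse gave 1336 to 1538, 984 to 1160 and 1029 to 1182. Interactions with age, long-term and acute restriction numbered 8 and 14 (age and acute) with no filter, 2, 8 and 0 without doublets, 1, 10 and 3 without the deep barcodes, and 1 to 45, 16 to 89 and 3 to 48 with 1 library left out, highest without old ad libitum 2. The share of inhibitory barcodes differed by -1.17, -0.970 and -1.91 points with age, long-term and acute restriction after thinning; with acute restriction, edgeR on the numbers without a block gave a log2 ratio of -0.742, whose unadjusted p was under 0.05, and not under it with the replicate block. Leave-one-out ranges were 0.373 to 2.80 points with age, -4.44 to -2.01 with long-term restriction, -5.18 to -2.75 with acute restriction and 0.0790 to 1.52 between restrictions. The share of retained barcodes reversed with age after thinning (0.276 to -0.0164 points), and between restrictions, where the value was near 0 (0.00338 points, exact permutation p = 0.971), after thinning (-0.00386), with stricter thresholds (-0.0151) and without acute 2 (-0.0663), acute 3 (-0.0722), long-term 1 (-0.0249) or long-term 3 (-0.0137); its leave-one-out ranges were 0.0716 to 0.460, -0.501 to -0.113, -0.505 to -0.116 and -0.0722 to 0.149. Removal of the deep barcodes and edgeR without a block were chosen after seeing the data. At least 20 nuclei per library, or stricter thresholds, left under 2 libraries in some groups and gave no age or diet fit. The cause of these changes was not tested.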
